A study of Mus musculus with 17 samples.

Results

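Transforming growth factor beta (TGF-beta) ligands, their receptors and the proteins that hold the ligands latent were followed as a family of 10 genes, taken by symbol from the 54658 genes of the deposited table. The family comprises the ligand genes Tgfb1, Tgfb2 and Tgfb3, the activin subunit gene Inhba, the receptor genes Tgfbr1 and Tgfbr2, and the latent TGF-beta binding protein genes Ltbp1, Ltbp2, Ltbp3 and Ltbp4. All 10 were found, and all 10 passed the filter on low values (at least 1 CPM, the reads of a gene scaled to a fixed library total, in at least 2 libraries), so no member was lost to it.

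TGF-beta is secreted in a latent form, wrapped in its own propeptide, which is tied by a latent binding protein to fibrillin fibres of the extracellular matrix. Integrins or proteases release the ligand, which then brings the type II receptor (Tgfbr2) and the type I receptor (Tgfbr1) together, and the type I receptor phosphorylates Smad2 and Smad3. In adipose tissue the pathway is known for holding back the differentiation of fat cells and for driving the deposition of collagen, and macrophages are a known source of Tgfb1.

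RNA was sequenced in 16 libraries from mice, with 16444965 to 25805502 reads each, and the labels sort them into 8 codes of 2 libraries. MWM and MWF are fat-like implants grown from wildtype (WT) mouse embryonic fibroblasts, in groups described as male and female, and MKM and MKF are the same kind of implant grown from leptin knockout (KO) fibroblasts. The cells had been injected under the skin over the sternum of hosts named LD, a type the labels do not spell out, at 3 to 5 weeks of age. Surgery that destabilizes the medial meniscus of the left knee followed at 16 weeks, and the animals ended at 28 weeks. Endogenous visceral fat came with surgery in EVM and without it in EVFN. EVFY is visceral too by the genotype given for it, though nothing explains the code, and ESM is subcutaneous fat of males after surgery. All 4 implant codes and the codes EVM and ESM name surgery, and the design text calls the hosts male. The labels do not give the animals behind the endogenous fat, the leptin allele, or whether the 2 libraries of a code came from separate animals. The p-values are thus based on a spread between libraries that may be technical.

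The labels name the tissue as ganglia. Summed markers of sensory neurons (10 genes) were 7.34 to 43.8 CPM over the 16 libraries, and those of adipocytes (8 genes) were 11034 to 35089 CPM in the 14 libraries used for group means, so the libraries are called implants and fat here. A pair of libraries went against their labels. The library labelled MKM1 was nearest to the visceral library EVFY1 over 17964 genes (Pearson r of log2 values 0.989, against 0.891 with MKM2), and the library labelled EVFN1 was nearest to the KO implant MKF1 (0.984, against 0.906 with EVFN2). The gene of complement factor D (Cfd), a protease of adipocytes, was at 14068 CPM in MKM1 and 81.8 CPM in EVFN1, against 91.4 to 104 CPM in the other KO implants. Leptin transcript (Lep) was at 1336, 1644 and 1726 CPM in MKM2, MKF1 and MKF2, at 1045 CPM in MKM1 and at 806 to 2675 CPM in the WT implants, which checks no genotype because the allele is not given. MKM1 and EVFN1 are shown singly and left out of every group mean and test below, unless a value is said to include all 16 libraries. Of the groups described as male, MWM1 and MWM2 carried Xist, a transcript of the inactive X chromosome, at 494 and 466 CPM, with the Y-linked Ddx3y at 13.1 and 17.3 CPM. MKM1 held 352 CPM of Xist and none of Ddx3y, against 3.77 and 80.6 CPM in MKM2, and EVFN1 held 278 and 29.4 CPM, against 273 and 0 CPM in EVFN2. The words male, female and sexes below thus refer to the codes alone. In the male codes the KO library used in the means, MKM2, differs from both WT libraries in these markers.

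The next lines show the sequence before the most upstream RefSeq start site (GRCm38.p6) of the 4 members on which the results turn. Of these, 2 were higher in KO implants and 2 lower in implants than in visceral fat. The RefSeq table held 9 of the 10 members. It gave 1 start site for Tgfb1, 2 for Tgfbr1, 2 for Ltbp1 and 3 for Ltbp4, and the other start sites were not searched. Capitals mark matches on either strand to 5 motifs, of which none holds another, spelled CAGAC (Smad box), TGANTCA (AP-1), GGGCGG (GC box), CCAAT and TATAAA.
Tgfb1 chr7:25686752-25687001 plus strand: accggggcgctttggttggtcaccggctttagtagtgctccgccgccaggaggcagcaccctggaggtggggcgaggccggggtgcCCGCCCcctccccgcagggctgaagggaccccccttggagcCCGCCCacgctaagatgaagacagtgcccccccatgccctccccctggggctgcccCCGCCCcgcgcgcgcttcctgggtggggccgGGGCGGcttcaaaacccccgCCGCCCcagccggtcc
Tgfbr1 chr4:47352972-47353221 plus strand: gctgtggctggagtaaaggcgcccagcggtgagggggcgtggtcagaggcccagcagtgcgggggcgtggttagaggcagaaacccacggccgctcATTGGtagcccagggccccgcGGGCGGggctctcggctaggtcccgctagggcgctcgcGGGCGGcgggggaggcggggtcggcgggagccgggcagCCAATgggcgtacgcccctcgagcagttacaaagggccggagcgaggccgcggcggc
Ltbp1 chr17:75005279-75005528 plus strand: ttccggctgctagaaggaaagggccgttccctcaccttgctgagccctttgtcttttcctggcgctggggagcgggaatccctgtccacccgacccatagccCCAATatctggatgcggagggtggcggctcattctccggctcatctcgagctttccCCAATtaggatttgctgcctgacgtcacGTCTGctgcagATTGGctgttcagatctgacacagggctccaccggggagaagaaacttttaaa
Ltbp4 chr7:27337693-27337862 minus strand: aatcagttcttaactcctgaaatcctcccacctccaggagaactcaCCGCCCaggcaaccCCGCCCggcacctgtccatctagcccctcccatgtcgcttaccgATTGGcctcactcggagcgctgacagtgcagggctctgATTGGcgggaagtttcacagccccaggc
Of 27025 mouse promoters of the same 250 bases, 33.0% held a GC box, 34.5% a CCAAT box, 42.2% a CAGAC match, 13.0% TATAAA and 6.85% an AP-1 match. The Tgfb1 stretch held 5 GC boxes and no other match, and Tgfbr1 held 2 GC boxes and 2 CCAAT boxes. The Ltbp1 stretch held 1 CAGAC match and 3 CCAAT boxes. For Ltbp4 the printed 170 bases end where an annotated exon of the gene begins, and they held 2 GC boxes and 2 CCAAT boxes. G and C made up 75.2% of the 250 bases before Tgfb1, 74.8% before Tgfbr1, 56.8% before Ltbp1 and 64.4% before Ltbp4, against a median of 52.0% over all promoters. The 250 bases of Ltbp4 include 80 bases of annotated exon that are not printed, so its 64.4% is not that of the printed stretch. A match describes letters and not a bound site.

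Tgfb1 and its type I receptor gene Tgfbr1 were higher in KO implants than in WT implants, and these were the only members of the 10 that passed the test in that comparison. Tgfb1 was 2.08-fold higher and Tgfbr1 1.58-fold higher, on the log2(CPM + 0.5) scale on which all fold changes here are given. Differences were tested with limma across 17964 genes with Benjamini-Hochberg adjustment, and rose or fell is written only where the adjusted p was under 0.05. In this comparison 10.8% of all genes passed, against 2 of 10 members. With all 16 libraries as labelled, 1.72% of genes and 0 of the 10 members passed (2 members at an unadjusted p under 0.05). Neither Tgfb1 nor Tgfbr1 was among these members.

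Tgfb1, which encodes the main ligand of the family in most tissues, lies on chromosome 7 (25687002 to 25705077, plus strand, mm10). The KO implants MKM2, MKF1 and MKF2 held 235, 307 and 308 CPM. The WT implants held 114 (MWM1), 104 (MWM2), 162 (MWF1) and 145 CPM (MWF2). Every KO implant used in the means lay above every WT implant. The log2 difference was 1.05 ± 0.12 (SE; limma adjusted p = 0.00137). In the groups described as female it was 1.00 ± 0.15 (adjusted p = 0.00436), and in those described as male, with 1 KO library against 2, it was 1.10 ± 0.19 (adjusted p = 0.0349). The male value did not pass in 6 of the 13 fits that left out 1 library.

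In endogenous fat, Tgfb1 was at 83.7 (EVFY1), 97.5 (EVFY2), 85.4 (EVFN2), 169 (EVM1) and 129.8 CPM (EVM2) in visceral libraries and at 96.3 (ESM1) and 87.5 CPM (ESM2) in subcutaneous ones. The EVM libraries stood above the other endogenous libraries and inside or just above the WT implant range. KO implants exceeded visceral fat by a log2 difference of 1.36 ± 0.12 (SE; limma adjusted p = 0.000189) and subcutaneous fat by 1.54 ± 0.14 (adjusted p = 0.000384). The order of the tissue means was KO implants (283 ± 42.1 CPM, SD, n = 3), WT implants (131 ± 26.8, n = 4), visceral fat (113 ± 36.3, n = 5) and subcutaneous fat (91.9 ± 6.21, n = 2), and no difference among the last 3 passed the test. The library labelled MKM1 held 94.2 CPM of Tgfb1, inside the visceral range, and EVFN1 held 305 CPM, inside the KO range.

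**Figure D1:**
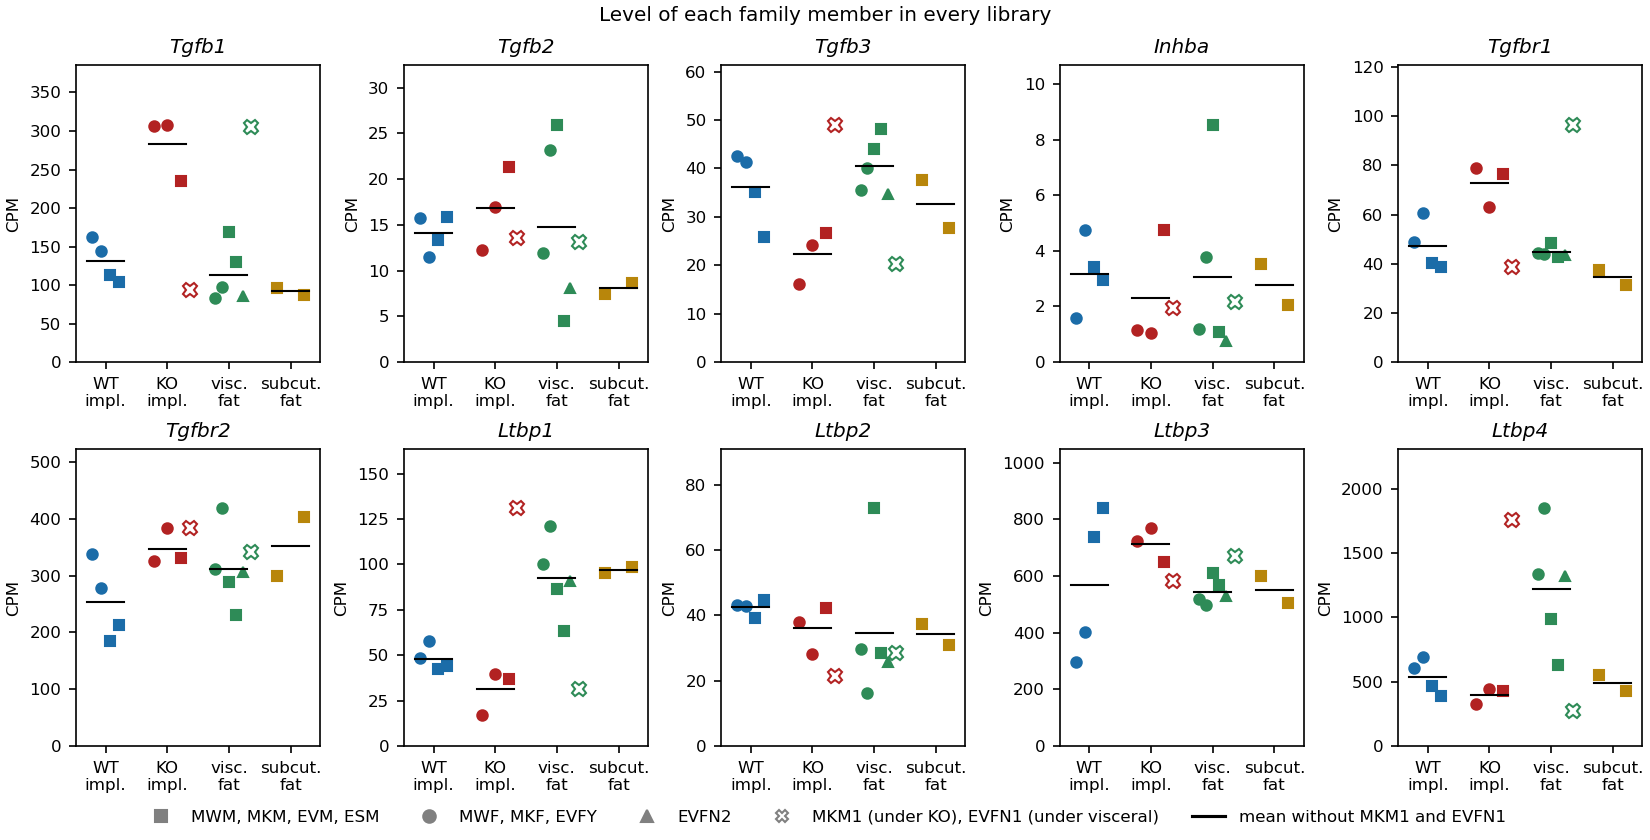
Level of each of the 10 family members (CPM, linear axes from 0) in each of the 16 libraries, with symbols for the group codes, black lines for the tissue means and open crosses for the 2 libraries shown singly. Tgfb1 and Tgfbr1 of the 3 KO implants sit above all 4 WT implants, and Ltbp4 of the 5 visceral libraries spreads from 626 to 1846 CPM.

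Across the libraries, though not within WT implants or subcutaneous fat, Tgfb1 moved with markers of macrophages, the phagocytes of the tissue. All 10 macrophage marker genes (Cd68, Adgre1, Csf1r and others) rose in KO against WT implants, and none of them was at 0 in any library. Their summed level was 6998 to 8471 CPM in KO implants, 1570 to 2128 CPM in WT implants, 1190 to 3268 CPM in visceral fat and 1311 to 1873 CPM in subcutaneous fat. The EVM libraries, which held the most Tgfb1 of the endogenous fat, also held the highest macrophage sums there (3268 CPM in EVM1 and 2621 CPM in EVM2). Within WT implants the order differed, since MWM1 held the most macrophage markers (2128 CPM) with 114 CPM of Tgfb1. MWF1 and MWF2 held 1643 and 1582 CPM of the markers with 162 and 145 CPM of Tgfb1. In subcutaneous fat ESM2 held more of the markers than ESM1 (1873 against 1311 CPM) and less Tgfb1 (87.5 against 96.3 CPM). EVFN1 held 9977 CPM of macrophage markers and MKM1 held 1784 CPM. The part of macrophage markers in the Tgfb1 difference was not tested. In bulk tissue, fewer cells of a type and less RNA per cell cannot be told apart.

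Tgfb2, the ligand gene best known from development of the heart and eye, lies on chromosome 1 (186622792 to 186705989, minus strand). It ranged from 4.53 CPM (EVM2) to 25.9 CPM (EVM1), so its lowest and highest levels came from the same group code. KO implants held 21.3 (MKM2), 12.2 (MKF1) and 17.0 CPM (MKF2), and WT implants held 11.4 to 15.9 CPM. The tissues overlapped, except that both subcutaneous libraries (7.49 and 8.60 CPM) lay below all implants. The log2 difference between KO and WT implants was 0.32 ± 0.51 (SE; limma adjusted p = 0.725), with a 95% interval from -0.84 to 1.48, and no comparison of Tgfb2 passed. Without EVM1 it rose in KO implants against visceral and against subcutaneous fat, and without EVM2 against subcutaneous fat.

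Tgfb3, the ligand gene known from palate closure, lies on chromosome 12 (86056745 to 86079041, minus strand). It was at 26.7 (MKM2), 16.1 (MKF1) and 24.1 CPM (MKF2) in KO implants and at 35.1 (MWM1), 25.8 (MWM2), 42.6 (MWF1) and 41.2 CPM (MWF2) in WT implants. The ranges overlapped through MKM2 and MWM2. The log2 difference of -0.62 ± 0.18 (SE) did not pass over both sexes (limma adjusted p = 0.0621). In the female groups Tgfb3 fell by 1.07 ± 0.23 on the log2 scale (adjusted p = 0.0162), a call that was lost without MKF1, MWF1 or MWF2 and with all 16 libraries. Against visceral fat, where it was at 34.6 to 48.2 CPM in all 5 libraries, Tgfb3 of KO implants fell by 0.76 ± 0.18 (adjusted p = 0.0153). MKM1 held 49.0 CPM of Tgfb3, above every other library, and EVFN1 held 20.3 CPM, inside the KO range.

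Inhba encodes the subunit of activin A, a relative of TGF-beta that signals through other receptors to the same Smads. It lies on chromosome 13 (16011851 to 16031621, plus strand) and was the lowest member per kilobase of exon. It ranged from 0.772 CPM (EVFN2) to 8.54 CPM (EVM1), and EVM2 held 1.09 CPM, so the spread within a group code spanned nearly the whole range. WT implants held 1.59 to 4.74 CPM and KO implants 1.03 to 4.73 CPM. No comparison of Inhba passed the test, and the 95% interval of the log2 difference between KO and WT implants ran from -1.69 to 1.15.

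Per kilobase of annotated exon, which allows genes to be compared, the 3 TGF-beta ligands made up different mixtures in the tissues. Tgfb1 gave 85.3% ± 4.90 of the summed ligand level in KO implants (SD, n = 3), 66.3% ± 1.63 in WT implants (n = 4), 60.0% ± 4.42 in visceral fat (n = 5) and 62.4% ± 2.61 in subcutaneous fat (n = 2). Tgfb3 gave 10.2% ± 3.27, 27.2% ± 2.16, 33.2% ± 4.39 and 32.8% ± 3.59 in the same order. The KO implants held 80.1 to 89.8% Tgfb1, and every other library used in the means held at most 67.7%. Tgfb2 stayed the smallest share of the ligands in every one of these libraries, at 1.92 to 11.4%. These shares were not tested, and each rests on the same reads as the levels above.

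**Figure D2:**
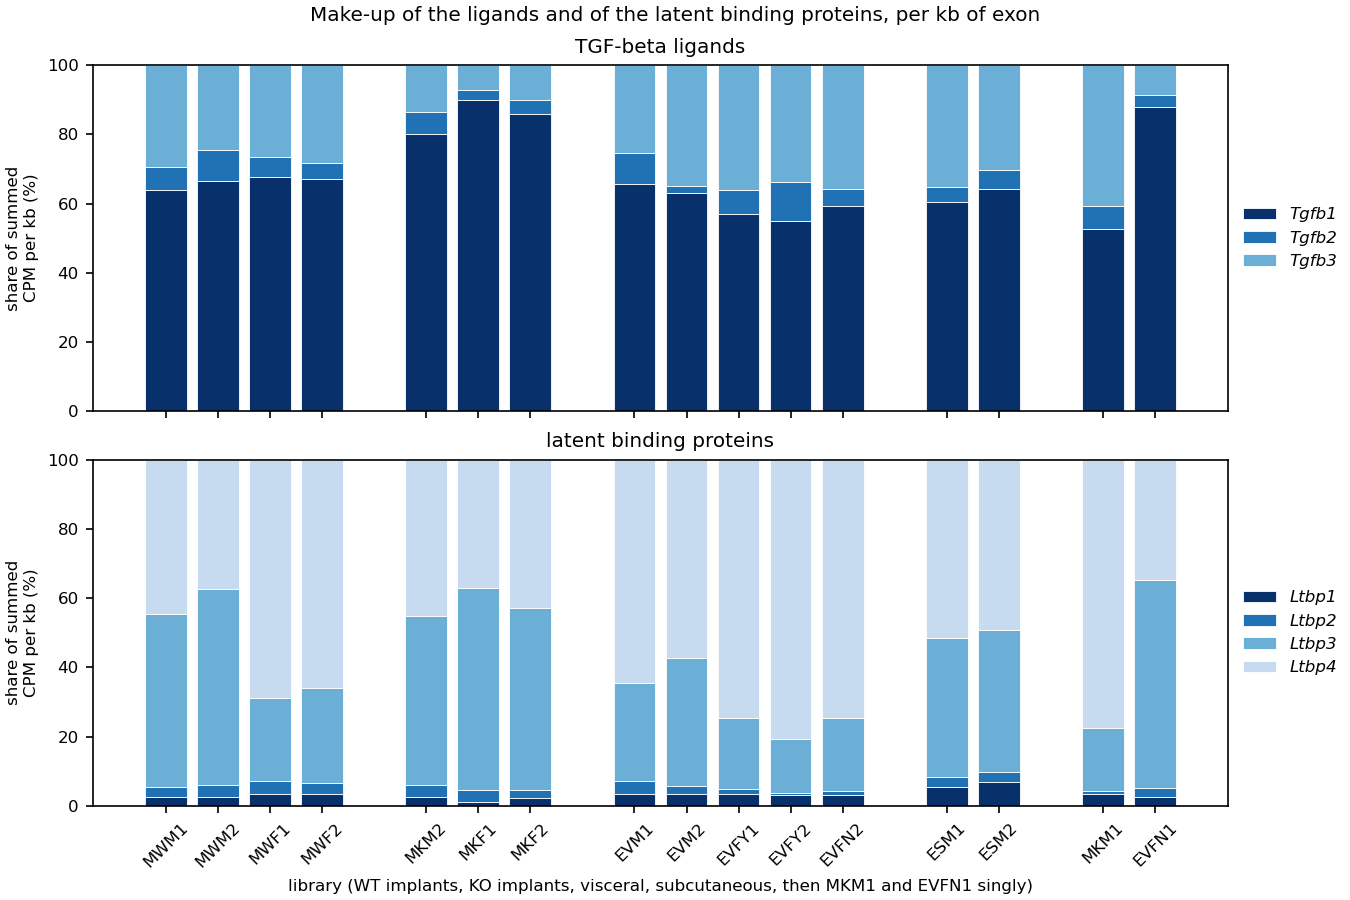
Shares of the summed level per kilobase of exon (%, stacked to 100) held by each TGF-beta ligand gene and by each latent binding protein gene, 1 bar per library, with MKM1 and EVFN1 last. Tgfb1 takes 80.1 to 89.8% of the ligands in the 3 KO implants, and Ltbp3 and Ltbp4 together make up most of the binding proteins in every library.

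Tgfbr1, the kinase that passes the signal to the Smads, lies on chromosome 4 (47353222 to 47414931, plus strand). KO implants held 76.6 (MKM2), 78.9 (MKF1) and 63.1 CPM (MKF2). The WT implants held 40.2 (MWM1), 38.9 (MWM2), 48.9 (MWF1) and 60.6 CPM (MWF2). No KO implant overlapped a WT implant, though MKF2 and MWF2 lay close together. The log2 difference was 0.66 ± 0.13 (SE; limma adjusted p = 0.0137), and it passed without any 1 library except MWM2. In the male groups it was 0.95 ± 0.20 (adjusted p = 0.056) and in the female groups 0.37 ± 0.16 (adjusted p = 0.141), and neither passed with limma. Both passed with median-of-ratios scaling, edgeR and DESeq2.

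Visceral fat held a narrow range of Tgfbr1, from 42.7 to 48.6 CPM, and subcutaneous fat held 37.4 (ESM1) and 31.6 CPM (ESM2). KO implants were higher than visceral fat by 0.72 ± 0.12 (SE; limma adjusted p = 0.00379) and higher than subcutaneous fat by 1.09 ± 0.15 (adjusted p = 0.00206) on the log2 scale. The order of the means was KO implants (72.9 CPM), WT implants (47.1), visceral fat (44.6) and subcutaneous fat (34.5), and neighbours among the last 3 did not pass the test. EVFN1 held 96.6 CPM, the highest of all 16 libraries, and MKM1 held 38.6 CPM. As a group the KO implants were high in Tgfbr1 and in macrophage markers, but their order differed. MKF2 held the most macrophage markers of the KO implants used in the means (8471 CPM) and the least Tgfbr1 (63.1 CPM). The part of these markers was not tested.

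Tgfbr2, the receptor that binds the ligand first, lies on chromosome 9 (116084293 to 116175360, minus strand). It was at 332 (MKM2), 325 (MKF1) and 384 CPM (MKF2) in KO implants and at 185 (MWM1), 213 (MWM2), 339 (MWF1) and 277 CPM (MWF2) in WT implants. The ranges overlapped through MWF1. The log2 difference of 0.47 ± 0.18 (SE; limma adjusted p = 0.119) did not pass, and neither did any other comparison of Tgfbr2 with limma. Visceral fat held 231 to 418 CPM and subcutaneous fat 300.0 to 404 CPM. Both MKM1 (383 CPM) and EVFN1 (341 CPM) lay inside the KO range and inside the visceral range, so Tgfbr2 did not separate them.

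**Figure D3:**
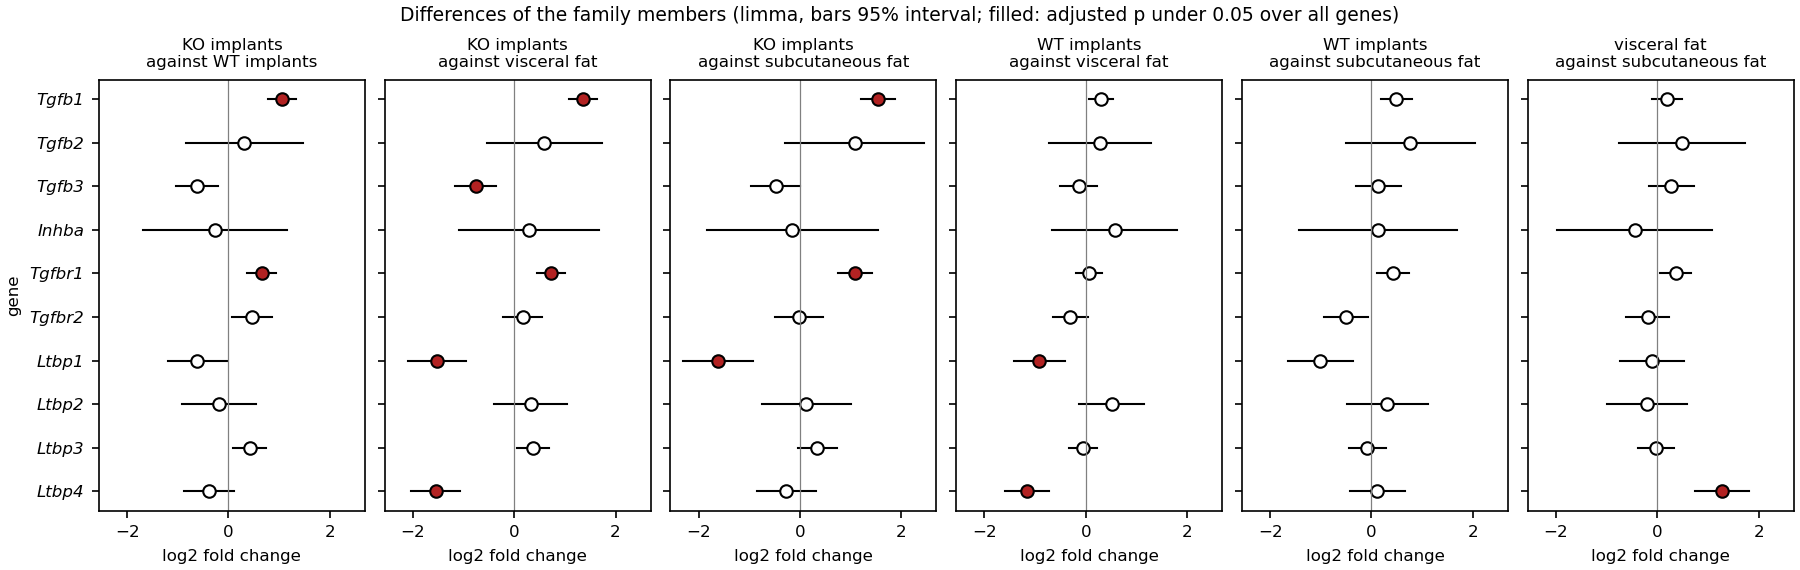
Log2 fold change of each member (x axis, limma on log2(CPM + 0.5), bars 95% interval) in 6 comparisons of tissues, filled where the adjusted p over all genes was under 0.05. Tgfb1 and Tgfbr1 are filled to the right in each comparison with KO implants, and Ltbp1 and Ltbp4 are filled to the left in both comparisons of implants with visceral fat.

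Ltbp1 and Ltbp4, 2 of the 4 binding protein genes, were lower in implants than in visceral fat. They fell in WT implants and in KO implants alike, and no other member fell in both. These comparisons share the 5 visceral libraries, and of the visceral codes only EVM names surgery, as all implant codes do. Of all genes, 22.3% passed between WT implants and visceral fat, against 2 of 10 members, and 24.6% between KO implants and visceral fat, against 5 of 10 (Tgfb1 and Tgfbr1 higher, Tgfb3, Ltbp1 and Ltbp4 lower). With all 16 libraries as labelled, 9.66% and 0% of genes passed, and 0 of the 10 members in either comparison (1 and 0 at an unadjusted p under 0.05). The member counted there was neither Ltbp1 nor Ltbp4.

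Ltbp1, which ties latent TGF-beta to the matrix, lies on chromosome 17 (75005568 to 75392512, plus strand). Visceral fat held 86.5 (EVM1), 63.3 (EVM2), 100.2 (EVFY1), 121 (EVFY2) and 91.1 CPM (EVFN2), and subcutaneous fat held 95.2 (ESM1) and 98.8 CPM (ESM2). WT implants held 42.2 (MWM1), 44.0 (MWM2), 48.6 (MWF1) and 57.8 CPM (MWF2), and KO implants held 37.1 (MKM2), 17.2 (MKF1) and 39.4 CPM (MKF2). The 3 ranges of KO implants, WT implants and endogenous fat followed each other without overlap. Ltbp1 fell by 0.91 ± 0.22 in WT implants against visceral fat on the log2 scale (SE; limma adjusted p = 0.0223), a call lost without MWF1, MWM1 or MWM2. It fell by 1.53 ± 0.25 in KO implants (adjusted p = 0.00326).

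Against subcutaneous fat, Ltbp1 of KO implants fell by 1.62 ± 0.31 on the log2 scale (SE; limma adjusted p = 0.00834), a call lost without ESM2. In WT implants the log2 difference of -1.01 ± 0.28 did not pass (adjusted p = 0.0549). Between KO and WT implants the log2 difference of -0.61 ± 0.26 did not pass either (adjusted p = 0.163). MKM1 held 131 CPM of Ltbp1, more than any other library, and EVFN1 held 31.6 CPM, inside the KO range.

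Ltbp4, a binding protein gene also needed for elastic fibres, lies on chromosome 7 (27305136 to 27337692, minus strand). Visceral fat held 987 (EVM1), 626 (EVM2), 1339.8 (EVFY1), 1846 (EVFY2) and 1318 CPM (EVFN2). WT implants held 464 (MWM1), 392 (MWM2), 607 (MWF1) and 691 CPM (MWF2), and KO implants held 424 (MKM2), 326 (MKF1) and 443 CPM (MKF2). EVM2 overlapped the WT range and no visceral library overlapped the KO range. Ltbp4 fell by 1.16 ± 0.19 in WT implants (SE; limma adjusted p = 0.00426) and by 1.55 ± 0.21 in KO implants (adjusted p = 0.00137) against visceral fat on the log2 scale. Between KO and WT implants the log2 difference of -0.39 ± 0.22 did not pass (adjusted p = 0.284).

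Subcutaneous fat held 548 (ESM1) and 428 CPM (ESM2) of Ltbp4, inside the range of the WT implants. Ltbp4 was the only member that passed between visceral and subcutaneous fat, where 1.20% of all genes passed. It was higher in visceral fat by a log2 difference of 1.28 ± 0.23 (SE; limma adjusted p = 0.0399). That call was lost in 10 of the 14 fits that left out 1 library and with all 16 libraries as labelled (adjusted p = 0.80), where 0.323% of genes passed. Over its alternatives the adjusted p of Ltbp4 here ran from 2.93e-07 to 0.80. The visceral and subcutaneous libraries also differed in surgery and sex markers. ESM is from males after surgery, whereas of the visceral codes only EVM names surgery. EVFY1, EVFY2 and EVFN2 held 273 to 644 CPM of Xist and no Ddx3y, and more Ltbp4 than EVM1 and EVM2. The part of surgery and sex in the Ltbp4 difference was not tested. The library labelled MKM1 held 1757 CPM, close to EVFY2, and EVFN1 held 275 CPM, the lowest of all.

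Mesothelial markers, genes of the sheet of cells that covers visceral fat, moved with Ltbp4. All 6 markers (Upk3b, Msln and others) were lower in WT implants than in visceral fat, lower in KO implants than in visceral fat and higher in visceral than in subcutaneous fat. Their summed level was 184 to 499.6 CPM in visceral fat, 15.1 to 39.8 CPM in WT implants, 1.98 to 22.4 CPM in KO implants and 4.50 to 9.98 CPM in subcutaneous fat. From 1 to 2 of the 6 markers were at 0 in ESM1, ESM2, MKF2, MWF2, MKM2 and EVFN1. MKM1 held 474 CPM and EVFN1 2.49 CPM of these markers. Within visceral fat EVFY2, the library with the most Ltbp4, also stood apart in markers of mural and smooth muscle cells, at 6100 CPM against 723 to 1650 CPM in all others. The part of mesothelial and mural markers in the Ltbp4 values was not tested.

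**Figure D4:**
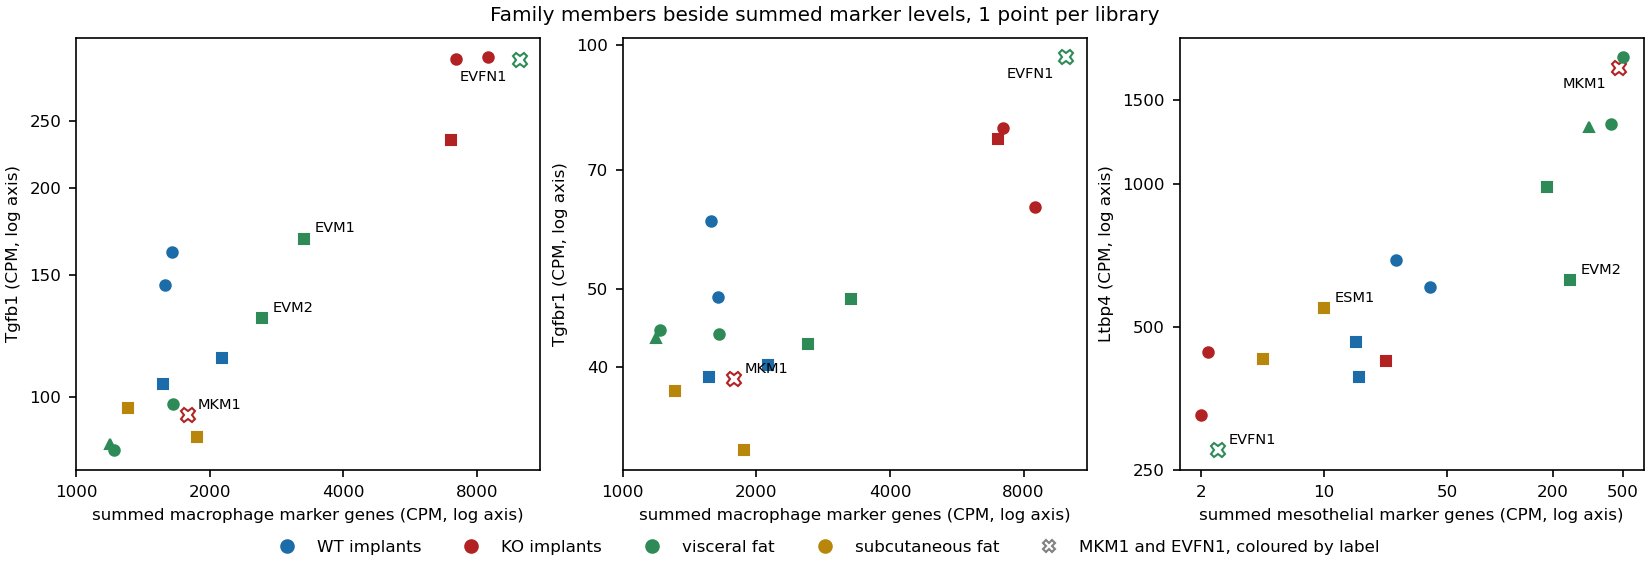
Tgfb1 and Tgfbr1 against the summed macrophage markers and Ltbp4 against the summed mesothelial markers (CPM, log axes), 1 point per library, coloured by tissue label, squares for codes described as male or with EVM, circles for MWF, MKF and EVFY and a triangle for EVFN2. The 3 KO implants and EVFN1 stand together at 6998 to 9977 CPM of macrophage markers, and MKM1 stands with the visceral libraries at 474 CPM of mesothelial markers.

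Ltbp3, the binding protein gene known from bone and tooth enamel, lies on chromosome 19 (5740904 to 5758532, plus strand). It was the member whose WT implants split most clearly by code. MWM1 and MWM2 held 736 and 838 CPM, and MWF1 and MWF2 held 295 and 402 CPM. The KO implants reached up into the range of the first pair, at 649 (MKM2), 724 (MKF1) and 768 CPM (MKF2), and endogenous fat held 496 to 609 CPM in all 7 libraries. Thus MWF1 and MWF2 were below, and MWM1 and MWM2 above, all of the endogenous fat.

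In the female groups, 16.4% of all genes passed between KO and WT implants, against 3 of 10 members. Ltbp3 rose by a log2 difference of 1.11 ± 0.18 (SE; limma adjusted p = 0.00547), beside the rise of Tgfb1 and the fall of Tgfb3 given above. MKM1 and EVFN1 are in neither female group, so with all 16 libraries these log2 differences are unchanged. Only the spread shared by all groups differs there. Ltbp3 passed under all 8 other settings, also with all 16 libraries, where it was the only member of the 10 among the 5.68% of genes that passed, and it did not pass without MKF2 (adjusted p = 0.0527, the highest of its alternatives, of which the lowest was 6.97e-14). In the male groups 1.39% of genes and 1 of 10 members (Tgfb1) passed, and the log2 difference of Ltbp3 was -0.28 ± 0.22 (adjusted p = 0.629). Over all 16 libraries 0.00557% of genes and 0 members passed there (1 at an unadjusted p under 0.05). The member counted there was not Tgfb1.

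The KO library of the male groups, MKM2, held 3.77 CPM of Xist, against 494 and 466 CPM in MWM1 and MWM2. KO and these sex markers thus cannot be told apart in the male groups. Whether the male groups responded otherwise than the female ones was tested directly. For this test 0.562% of all genes and 0 of the 10 members passed with limma, and 2 members had an unadjusted p under 0.05. That of Ltbp3 was -1.39 ± 0.29 (SE; adjusted p = 0.0696). It passed with all 16 libraries (-1.47, adjusted p = 0.0401), where 1.21% of genes passed, and with DESeq2 on the recovered reads (adjusted p = 2.42e-08), but not with edgeR (adjusted p = 0.0977). Over all its alternatives the adjusted p of this Ltbp3 value ran from 2.42e-08 (DESeq2) to 0.239 (limma without MWM2). The value with all 16 libraries counts MKM1 as a KO implant. MKM1 held 581 CPM of Ltbp3, inside the visceral range (496 to 609 CPM) and below the other KO implants (649 to 768 CPM). For Tgfb1 the male minus female difference with the 14 libraries was 0.10 ± 0.24, with a 95% interval from -0.46 to 0.66.

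The WT female libraries that were low in Ltbp3 also differed in other cells. Summed markers of T and B lymphocytes (6 genes) were 653 CPM in MWF1 and 422 CPM in MWF2 and at most 106 CPM in the other libraries used in the means. All 6 lymphocyte markers were tested between KO and WT implants of the female groups, and 5 of them fell. Skeletal muscle markers (6 genes) were 38532 CPM in MWF1 but 2807 CPM in MWF2, against 12168 and 13737 CPM in MWM1 and MWM2. The part of lymphocyte and muscle markers in the Ltbp3 values was not tested. The strand setting of the counting is not given in the sources used here, so reads of a member and of a transcript overlapping it on the other strand cannot be told apart. The members other than Ltbp3 share exon bases only with genes that were at most at 0.223 CPM.

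Ltbp2, a binding protein gene that does not bind latent TGF-beta itself, lies on chromosome 12 (84783212 to 84876532, minus strand). It was at 39.1 to 44.9 CPM in the 4 WT implants, so these lay close together. KO implants held 42.4 (MKM2), 37.9 (MKF1) and 28.2 CPM (MKF2). Visceral fat spread from 16.3 CPM (EVFY2) to 72.8 CPM (EVM1). No comparison of Ltbp2 passed the test, except that it rose in WT implants against visceral fat without EVM1.

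Per kilobase, Ltbp4 and Ltbp3 made up most of the binding protein transcripts in every library used in the means. Ltbp4 gave 70.4% ± 9.34 of the summed level in visceral fat (SD, n = 5), 54.2% ± 15.7 in WT implants (n = 4), 50.3% ± 1.78 in subcutaneous fat (n = 2) and 41.6% ± 4.16 in KO implants (n = 3). Ltbp3 gave 24.5% ± 8.38, 39.6% ± 16.4, 40.7% ± 0.737 and 53.5% ± 4.74 in the same order. Ltbp1 gave 1.95 to 6.13% on average and Ltbp2 1.77 to 3.36%. The shares of the WT implants split by code as the Ltbp3 levels did, so their SD is wide.

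Against subcutaneous fat, 10.4% of all genes passed in WT implants and 18.2% in KO implants. Of the 10 members, 0 passed in WT implants with limma, 4 had an unadjusted p under 0.05, edgeR passed 1 (Ltbp1) and DESeq2 passed 3 (Tgfb1 higher, Tgfbr2 and Ltbp1 lower). In KO implants 3 members passed, Tgfb1 and Tgfbr1 higher and Ltbp1 lower. With all 16 libraries 2.47% and 0.273% of genes passed, and 0 members in either. Of these, 1 and 3 had an unadjusted p under 0.05.

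Both libraries shown singly sat nearer to the other tissue than to the one on their label for most members. MKM1 was nearer to the visceral mean than to the KO mean in 8 of 10 members and inside the range of the other KO implants in 3. EVFN1 was nearer to the KO mean in 7 of 10 members and inside the range of the other visceral libraries in 4. For MKM1 the members nearer to its label were Inhba and Tgfbr2, and for EVFN1 they were Tgfb2, Inhba and Ltbp2. With limma on the 14 libraries, none of these 4 passed in any comparison.

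Among other genes of the pathway, the anchors and activators of latent TGF-beta (16 genes) rose in 3 cases and fell in 1 between KO and WT implants, with a median log2 difference of 0.21 against -0.06 over all genes, of which 10.8% passed. Nrros, which holds latent TGF-beta on myeloid cells such as macrophages, was at 107 ± 14.2 CPM in KO implants (SD, n = 3) and 49.3 ± 11.2 CPM in WT implants (n = 4), a log2 difference of 1.08 ± 0.11 (SE; limma adjusted p = 0.000719). The matrix proteases Mmp2 and Mmp14 rose by 1.11 ± 0.24 and 1.12 ± 0.25 (adjusted p = 0.0212 and 0.0234). Itgb8, an integrin subunit that activates latent TGF-beta, fell by 2.04 ± 0.37 (adjusted p = 0.0107), from 9.43 CPM in WT implants to 1.75 CPM in KO implants. With all 16 libraries Itgb8 alone of these 4 passed (adjusted p = 0.0268). All 6 lung epithelium markers fell between KO and WT implants too (median log2 difference -3.20), and their part in the Itgb8 value was not tested.

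Against visceral fat, 3 of these 16 genes rose in WT implants and none fell, a share no higher than the 22.3% of all genes that passed. Plg, the plasminogen gene of liver, was at 120 ± 68.0 CPM in WT implants and at most 0.238 CPM in visceral fat. Itgb6, an epithelial integrin subunit, was at 5.62 ± 4.06 CPM in WT implants and 0.545 CPM on average in visceral fat (log2 difference 2.84 ± 0.80, adjusted p = 0.036 by limma). Itgb8 rose by 1.58 ± 0.32 (adjusted p = 0.0109). All 6 liver markers and all 6 lung epithelium markers rose in the same comparison. Their summed levels in WT implants were 2130 to 9832 CPM and 130 to 523 CPM, against at most 62.6 and 0.119 CPM in visceral fat, and their part in the values of Plg, Itgb6 and Itgb8 was not tested.

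Of 13 coreceptors and activin genes, Fst alone rose between KO and WT implants, where 10.8% of all genes passed. Fst encodes follistatin, which binds activins, and its log2 difference was 0.85 ± 0.15 (SE; limma adjusted p = 0.0097; 0.0209 with all 16 libraries). Against visceral fat, 5 of the 13 fell in WT implants and none rose, beside 22.3% of all genes that passed in either direction. These were the type I receptors Acvr1c (-1.08 ± 0.21), Acvrl1 (-0.45 ± 0.11) and Acvr1 (-0.37 ± 0.11), the endothelial coreceptor Eng (-0.85 ± 0.22) and the activin binder Fstl3, which is named after its value was seen. Acvr1c fell from 188 CPM in visceral fat to 88.2 CPM in WT implants (adjusted p = 0.0099). With all 16 libraries none of the 5 passed (5 at an unadjusted p under 0.05 in the list). In the comparison of 14 libraries 6 of 8 adipocyte markers (median log2 difference -0.73) and 2 of 6 endothelial markers (median -0.44) fell as well, and their part in these values was not tested.

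Of 12 Smads and their regulators, none passed between KO and WT implants with limma, and 3 had an unadjusted p under 0.05. Zfyve9, which brings Smad2 to the receptor, had the smallest p (log2 difference -0.41 ± 0.11 SE, adjusted p = 0.0532), and Smad2 itself was at 0.34 ± 0.10 (adjusted p = 0.0719). Smurf1, a ubiquitin ligase that removes Smads and receptors, fell by 0.64 ± 0.10 in WT implants against visceral fat (adjusted p = 0.00375; 0.0418 with all 16 libraries) and was the only one of the 12 to pass there, where 22.3% of all genes passed.

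Of 15 target genes, Col3a1 and Postn rose between KO and WT implants and none fell, with a median log2 difference of 0.95 against -0.06 over all genes, of which 10.8% passed. The median of the list was 0.49 with all 16 libraries. Col3a1, a fibrillar collagen, had a log2 difference of 1.36 ± 0.28 (SE; limma adjusted p = 0.018) and Postn, the matrix protein periostin, 2.08 ± 0.49 (adjusted p = 0.0296). Over all 16 libraries none of the 15 passed (2 at an unadjusted p under 0.05). Against visceral fat, 7 of the 15 rose in KO implants and none fell, beside 24.6% of all genes that passed in either direction, and with all 16 libraries 0 passed there (2 at an unadjusted p under 0.05). Col3a1 was among the 7 (limma adjusted p = 0.00746) and Postn was not (0.132). Postn ran from 88.9 to 1334 CPM in visceral fat, against 680 to 824 CPM in KO implants. Against subcutaneous fat, 3 of the 15 rose in KO implants, beside 18.2% of all genes that passed. Postn was among these 3 (limma adjusted p = 0.0405) and Col3a1 was not (0.305). In WT implants against visceral fat, Comp, a cartilage matrix gene, rose (3.62 ± 0.42, limma adjusted p = 0.00101, and 0.0828 with all 16 libraries).

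**Figure D5:**
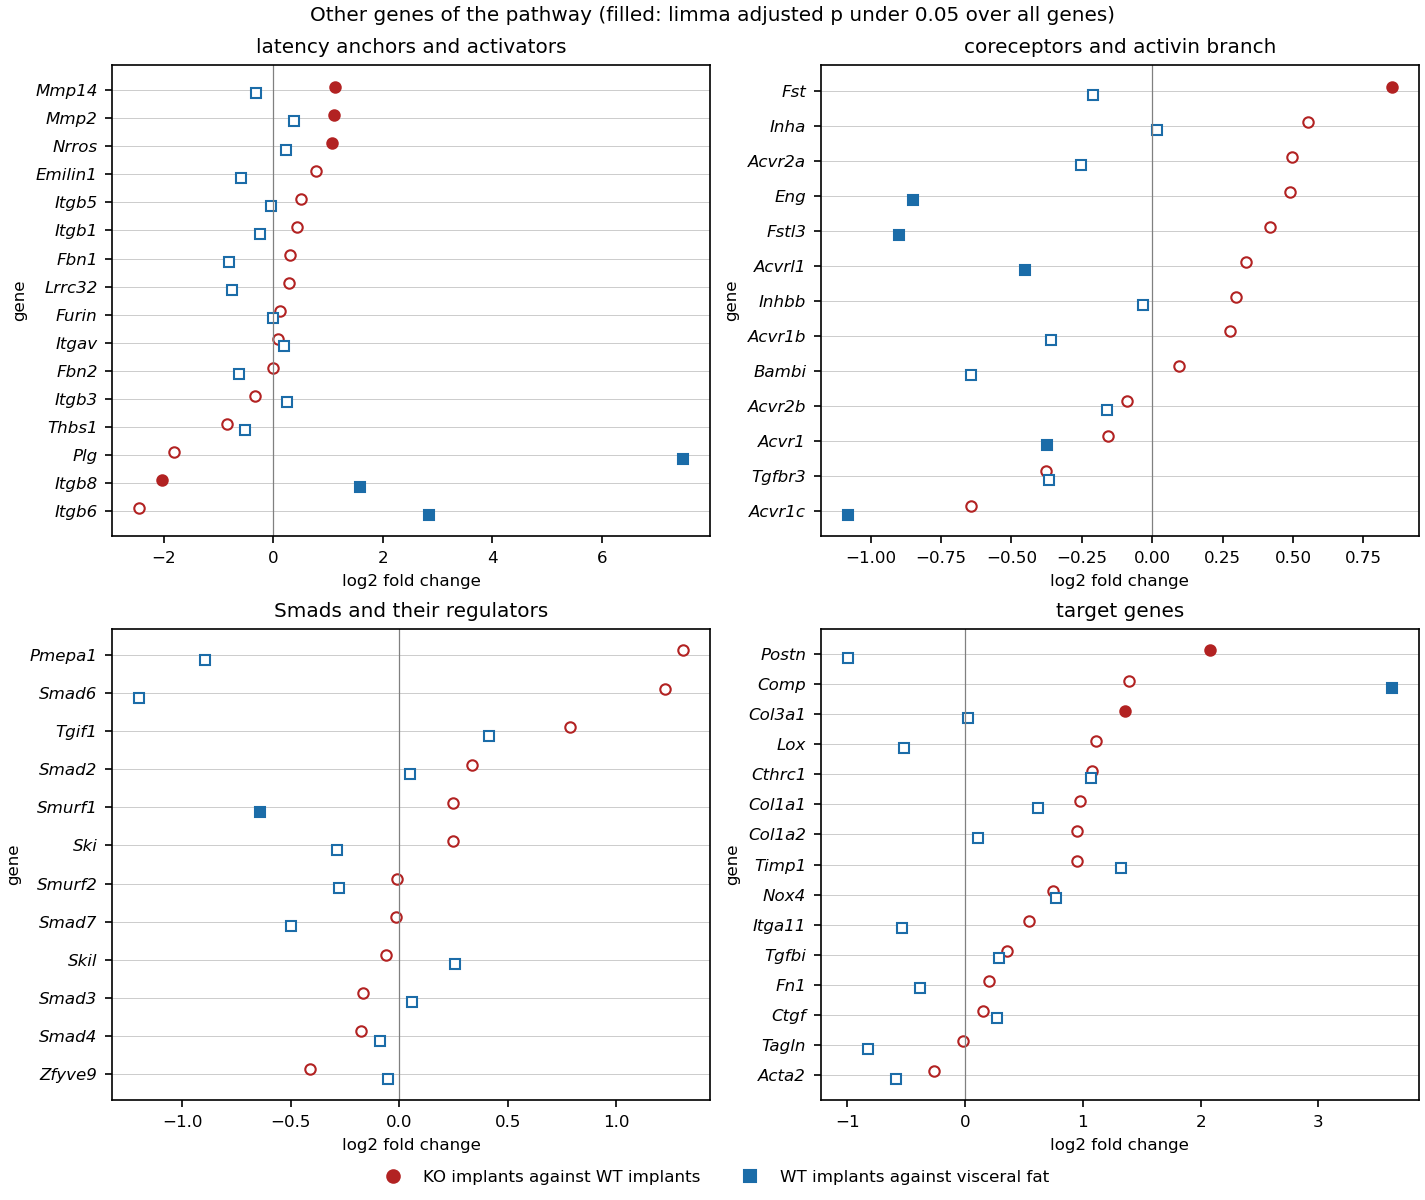
Log2 fold change of 56 other genes of the pathway in 4 lists (x axis, limma on log2(CPM + 0.5)), red circles for KO against WT implants and blue squares for WT implants against visceral fat, filled where the adjusted p over all genes was under 0.05. Most target genes lie to the right of 0 between KO and WT implants though only Col3a1 and Postn are filled, and Plg stands far to the right beside the liver markers of the WT implants.

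The genes whose levels were most like each member were searched among 11675 genes over the 14 libraries, which share tissues and depth, so the values describe these libraries. Tgfb1 was most like Nckap1l (Pearson r = 0.985 of log2 values), a gene of blood cells that was at 299 CPM on average in KO implants and 93.3 CPM in WT implants, and like Cyth4 (0.985). Tgfbr1 was most like Capn7 (0.952) and Vps4b (0.950). Ltbp4 was most like Meis1 (0.963) and Csrp2 (0.960), Ltbp1 like Ildr2 (0.957) and Vit (0.955), and Ltbp3 like Col4a1 (0.924), a basement membrane collagen, and Tgoln1 (0.904). The single nearest gene of each other member had a lower value, from 0.830 for Ltbp2 and Cdhr5 to 0.870 for Tgfb2 and Acot1.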

How the data were processed

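The deposited file is 1 table by the authors with 54658 genes in CPM, in which each column was found to sum to 1000000. Per the submitters' processing notes the build was mm10, and the tools named are STAR 2.5.4, featureCounts from Subread 1.6.3, cutadapt 2.7 and FastQC 0.11.4. Per the labels' protocols, ribosomal RNA was removed with RNase H and cDNA was made from random hexamers, whereas the molecule field of the labels reads polyA RNA. For the strand setting, annotation and filters, the sources used here give nothing. Of 17 labelled samples, 1 (ESF) is not analysed here.

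Read counts were recovered from the CPM, since 100.0% of nonzero values were a whole number of reads within 0.001. Values of log2(CPM + 0.5), which understate changes of low genes, were tested with limma 3.58.1 under R 4.3.3 (trended prior variance, robust moderation). Genes entered with 1 CPM or more in 2 or more libraries. Without MKM1 and EVFN1, all 8 codes entered 1 model of group means (14 libraries, 6 residual degrees of freedom), and MKM and EVFN were then 1 library each, assumed to vary like the rest. In the tests, tissues are equally weighted means of their codes, whereas the printed tissue means, SDs and shares are taken over libraries. P-values were adjusted over all 17964 genes, also for the pathway lists. The test was also run on simulated data in which only the KO implant groups were changed, without the other differences between tissues. The simulated libraries were independent and correctly labelled. Libraries from the same animal and wrong labels were thus not covered, and no result here rests on that run.

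Alternatives were pseudocounts of 0.1 and 2, no filter, median-of-ratios scaling, edgeR 4.0.16 and DESeq2 1.42.0 on the recovered reads, all 16 libraries, a replicate block and leaving out each library. All members are named, and of each pathway list up to 4 genes with the smallest adjusted p per comparison, and the 2 genes most like each member. Members, lists and markers were chosen with earlier results of these data known. A gene of the target list and an overlap of exons with another gene were left out and are not reported here. Gene positions and exon lengths are from GENCODE M21.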

Additional observations from a re-analysis of the deposited data

Results flagged for a closer look

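Ltbp3 and Inhba drew attention because KO and WT implants differed in opposite directions in the male and the female groups. This held for every library used in the means. For Ltbp3 the KO implant MKM2 (649 CPM) lay below MWM1 and MWM2 (736 and 838 CPM), whereas MKF1 and MKF2 (724 and 768 CPM) lay above MWF1 and MWF2 (295 and 402 CPM). The male difference minus the female difference was -1.39 on the log2 scale (limma adjusted p = 0.0696), so the difference itself did not pass the test.

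For Inhba the KO implant MKM2 (4.73 CPM) lay above MWM1 and MWM2 (3.43 and 2.94 CPM), whereas MKF1 and MKF2 (1.16 and 1.03 CPM) lay below MWF1 and MWF2 (1.59 and 4.74 CPM). The difference of the differences was 1.57 on the log2 scale (limma adjusted p = 0.573) and did not pass. The male side rests on 1 KO library for both genes, and this library differed from MWM1 and MWM2 in Xist and Ddx3y. The library labelled MKM1, left out here, held 1.93 CPM of Inhba, below MWM1 and MWM2 as in the female groups. With all 16 libraries as labelled, the male log2 difference of Inhba was -0.04.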

How the results depend on the processing

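No log2 difference of a member that passed reversed under any alternative, and 331 of 373 values kept their side of the threshold. These values include fits that left out a library on neither side of a comparison. There the log2 difference cannot change, and only its p-value can, so the counts overstate how stable the members are. With all 16 libraries as labelled, the members that passed were 0 between KO and WT implants, 1 in the female groups (Ltbp3), 0 in the male groups, 1 for the difference between sexes (Ltbp3), 0 between WT implants and visceral fat, 0 between KO implants and visceral fat, 0 between KO implants and subcutaneous fat and 0 between visceral and subcutaneous fat.

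Without the filter, 1 member (Ltbp3) passed for the difference between sexes. With median-of-ratios scaling 2 passed in the male groups (Tgfb1, Tgfbr1), 1 for the difference between sexes (Ltbp3) and 1 between WT implants and subcutaneous fat (Ltbp1). With this scaling, with edgeR and with DESeq2, 4 members passed in the female groups, Tgfbr1 in addition. With edgeR 2 passed in the male groups and 1 between WT implants and subcutaneous fat. With DESeq2 4 passed between KO and WT implants (Tgfb1, Tgfbr1 and Ltbp3 higher, Tgfb3 lower), 2 in the male groups, 1 for the difference between sexes and 3 between WT implants and subcutaneous fat. The cause of these changes was not tested.

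With the replicate number as a replicate block, 0 members passed between visceral and subcutaneous fat, and the counts of members in the other comparisons were as without it. Deviations of libraries with the same number correlated from -0.44 to 0.34 over 15 pairs of groups, over 0.1 in 7, so the numbers were not taken to pair the libraries.

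Leaving out each library in turn gave 1 to 3 members between KO and WT implants (1 without MWM2), 2 to 3 in the female groups, 0 to 1 in the male groups, 0 for the difference between sexes, 1 to 4 between WT implants and visceral fat (4 without EVM1), 5 to 6 between KO implants and visceral fat, 0 to 1 between WT implants and subcutaneous fat, 2 to 4 between KO implants and subcutaneous fat and 0 to 1 between visceral and subcutaneous fat. Without MKM2 the male groups and the difference between sexes could not be fitted.

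Counts over all genes ranged from 309 (all 16 libraries) to 3083 (DESeq2) between KO and WT implants, from 748 (without MKF2) to 3835 in the female groups, from 1 to 873 in the male groups and from 0 to 610 for the difference between sexes. They ranged from 1735 to 5160 between WT implants and visceral fat, from 0 to 5457 between KO implants and visceral fat, from 308 to 2872 between WT implants and subcutaneous fat, from 49 to 4318 between KO implants and subcutaneous fat and from 55 to 715 between visceral and subcutaneous fat. Median-of-ratios scaling moved the median log2 difference of all genes from -0.20 to -0.07 in the female groups, from 0.12 to -0.00 in the male groups, from 0.25 to 0.00 for the difference between sexes, from 0.14 to 0.03 for WT implants and from 0.12 to 0.01 for KO implants against subcutaneous fat. Inhba, at 0.772 to 8.54 CPM, is the member most limited by depth.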
